A study of Mus musculus with 9 samples.

Results

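The serpins are a large family of proteins with 1 shared fold, most of which block serine proteases. Their members were taken as every gene of the deposited table whose symbol is Serpin followed by a clade letter from a to i, a number and any suffix letters, which gave 64 of 56748 genes. Of these, 23 were detected, meaning that 3 or more of the 9 libraries held 10 normalized counts or more. The measurements are RNA sequencing of wild-type primary mouse airway basal stem cells, the progenitors at the base of the epithelium that lines the airway. All libraries share that genotype and the same culture, at an air-liquid interface, in which a porous membrane carries the cells, with medium below them and air above. Cells were collected on day 1, day 3 and day 5, with 3 libraries each, days to which the submitters assign proliferation, then stratification, then the specification of luminal cells. Nothing in the labels says that the 3 libraries of a day are from different animals or cultures; the p-values therefore describe the spread of these libraries alone, which may be technical.

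An inhibitory serpin offers an exposed stretch, the reactive centre loop, as bait. When a protease cuts the bait, the loop folds into the body of the serpin at its hinge and traps the enzyme in a dead complex, so 1 serpin is spent for each protease. Clade a serpins are mostly secreted, such as the antitrypsin and antichymotrypsin groups, while clade b serpins mostly stay inside the cell and guard it against its own or invading proteases. Some members do not inhibit proteases at all, among them maspin (Serpinb5), the collagen chaperone Hsp47 (Serpinh1) and the growth regulator PEDF (Serpinf1). In stratified epithelia, clade b serpins are known as prominent products of the keratinocyte layers.

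Among inhibitory serpins the bait is known as the variable stretch and the hinge as the conserved one; the stretches below hold both for abundant members. In the coding sequence of 12 of the 23 detected serpins, in reading frame, a search found the hinge pattern GANGANGGNACN, where N is any base. The pattern occurs likewise in the coding sequence of 3.11% of the 22527 coding genes of the reference (GENCODE M21, GRCm38). Each line gives 60 coding bases on the sense strand from the start of that match, with the pattern in capitals, for the 11 of these members whose mean reached 100 normalized counts on at least 1 day. Coordinates are GRCm38, and each stretch with coordinates lies in the gene's last exon of the transcript used; the Serpine2 stretch spans an exon junction and has none.
Serpinb6a (chr13:33918140-33918199, -): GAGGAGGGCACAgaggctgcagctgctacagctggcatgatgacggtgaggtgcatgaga
Serpinb6b (chr13:32978201-32978260, +): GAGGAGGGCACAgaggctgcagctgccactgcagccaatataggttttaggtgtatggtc
Serpinb9 (chr13:33015693-33015752, +): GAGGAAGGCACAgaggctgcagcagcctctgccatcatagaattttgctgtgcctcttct
Serpinb9b (chr13:33039796-33039855, +): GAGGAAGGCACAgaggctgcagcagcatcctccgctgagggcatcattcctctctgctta
Serpinb1a (chr13:32842917-32842976, -): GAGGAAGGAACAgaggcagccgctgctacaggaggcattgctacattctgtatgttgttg
Serpinb8 (chr1:107607167-107607226, +): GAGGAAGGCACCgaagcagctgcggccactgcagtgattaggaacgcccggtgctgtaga
Serpinb2 (chr1:107524783-107524842, +): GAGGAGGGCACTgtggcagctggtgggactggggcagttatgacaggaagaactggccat
Serpinb10 (chr1:107546914-107546973, +): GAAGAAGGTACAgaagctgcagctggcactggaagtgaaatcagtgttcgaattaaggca
Serpinb11 (chr1:107379852-107379911, +): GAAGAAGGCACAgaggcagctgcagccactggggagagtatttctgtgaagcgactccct
Serpina9 (chr12:103997102-103997161, -): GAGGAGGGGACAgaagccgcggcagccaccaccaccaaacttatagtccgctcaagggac
Serpine2: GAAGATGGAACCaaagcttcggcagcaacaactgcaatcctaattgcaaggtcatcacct
Over the 12 stretches, compared base by base without gaps, the first 24 bases were identical at a median of 79.2% of positions and the last 36 bases at a median of 38.9%. The search itself fixed 8 of the first 24 bases; over the other 16 the median was 68.8%. All 12 stretches were found through their hinge, so the contrast with the last 36 bases is a description of stretches chosen that way. Serpinb6a and Serpinb6b were identical over the first 24 bases, and so were Serpinb9 and Serpinb9b. Over the last 36 bases the most alike pair, Serpinb6a and Serpinb8, shared 58.3%. For the other 11 detected members these letters were not found in frame, which says nothing more about them.

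The summed level of the family became a smaller part of the RNA from day to day. Summed over the 64 members, the level in normalized counts was 22663 ± 1359 (day 1), 18437 ± 749 (day 3) and 11499 ± 681 (day 5; SD, n = 3). Normalized counts are read counts divided by the authors' scaling factor for each library. The libraries of the 3 days did not overlap in this sum. As a share of all normalized counts it was 0.106% ± 0.00361, 0.0717% ± 0.0044 and 0.0563% ± 0.000879. Serpinb6a alone supplied 28.4% to 29.6% of the sum on day 1, 49.7% to 57.6% on day 3 and 25.3% to 32.0% on day 5. Its mean was 6535, 9920 and 3368 normalized counts on the 3 days, so most of the second fall in the sum lay in this 1 gene. Clade b supplied 95.9% of the sum on day 1, 91.2% on day 3 and 87.8% on day 5, while clade a went from 0.097% to 1.19% and 4.66%.

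Among the serpins 1 library stood apart the most. Day 1 library 2 differed from the other day 1 libraries by a median of 0.43 on the log2 scale over the 23 detected serpins, while those 2 differed from each other by 0.0756; over all tested genes the medians were 0.225 and 0.181 against 0.15. Cyp2f2, a secretory marker, was at 195 in it against 1035 and 1090, and the suprabasal keratin Krt4 at 8339 against 17021 and 17457. Other suprabasal and hillock markers did not all go that way. Krt13 and Krt78 were also lower in it, but Ecm1 (11581 against 11534 and 11595) and Cldn4 (7714 against 8124 and 8139) differed little. Krt6a was higher in it, at 36064 against 31711 and 33027. Without it, Serpinb8 lost its call from day 1 to day 5, Serpinb6b and Serpinb9 gained one from day 3 to day 5, and the other calls of the 23 kept their side of the threshold. The part of this library's makeup in the results was not tested. The other days also held a library that differed more from its group. Over all tested genes, day 5 library 1 differed from the others of its day by 0.29 and 0.371, against 0.172 between those. Over the detected serpins, day 3 library 3 differed from the others of its day by 0.288 and 0.361, against 0.219.

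Detection varied between clades. Clade b had 13 of 28 members detected, clade a 5 of 25, clade e 2 of 3 and clade f 1 of 2, and the only members of clades g and h were detected. None of clades c, d and i was detected. Clade b lies in 2 clusters, with 6 of 12 members detected on chromosome 1 and 7 of 16 on chromosome 13. All 6 genes of the Serpina1 group (antitrypsin) and all 4 of the Serpinb3 group were undetected, against 4 of 11 of the Serpina3 group, 2 of 8 of the Serpinb9 group, 2 of 5 of the Serpinb6 group and 3 of 3 of the Serpinb1 group.

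Of the 41 undetected members, 15 had no read in any library. Among the rest the highest value in any library was 14.1, in Serpinb6c on day 1. Its day 1 values were 13.6, 14.1 and 6.67, and no later library exceeded 1.25. Serpinb3a, which belongs to the squamous cell carcinoma antigen group, had 11.5, 3.32 and 13.3 on day 1 and at most 3.96 later. Serpini1 (neuroserpin) had 8.14, 4.98 and 10.3 on day 1, at most 1.34 on day 3 and 3.87 to 7.38 on day 5. Serpinc1, which encodes antithrombin of the liver, stayed between 2.49 and 10.7, and 58.8% of its 50-base stretches also occur in Zbtb37, so the source of these reads is uncertain. Near-identical copies can share reads: of the 50-base stretches in Serpinb9h transcripts 81.5% also occur in another gene, and the share was 79.3% for Serpina1c, 78.7% for Serpinb9f and 67.4% for Serpina1a. For these copies a low level and reads lost between copies cannot be told apart.

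Levels between members were compared per kilobase of transcript. Serpinb6a, an intracellular inhibitor known to block trypsin-like proteases and cathepsin G, ranked first on every day. Its level per kilobase was 2983 ± 250 on day 1, 4528 ± 445 on day 3 and 1537 ± 268 on day 5. On day 1 Serpinb5 (1561 ± 285 per kilobase) and Serpinb2 (1554 ± 271) followed with overlapping libraries, then Serpinb9b (844 ± 33.3) and Serpinb6b (633 ± 103). On day 3 the next were Serpinb1a (743 ± 59.2), Serpinb5 (502 ± 41.5), Serpinb6b (407 ± 82.3) and Serpine2 (332 ± 22.2), of which Serpinb6b overlapped both of its neighbours. By day 5 Serpinb11 stood second (890 ± 91.7), ahead of Serpinb1a (620 ± 78.4), Serpinb5 (450 ± 15.1) and Serpinb6b (310 ± 23.0), with no overlap between neighbours among these. Serpinb2 and Serpinb9b, at 59.6 ± 5.12 and 10.2 ± 4.49 per kilobase, had left the leading places.

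**Figure D1:**
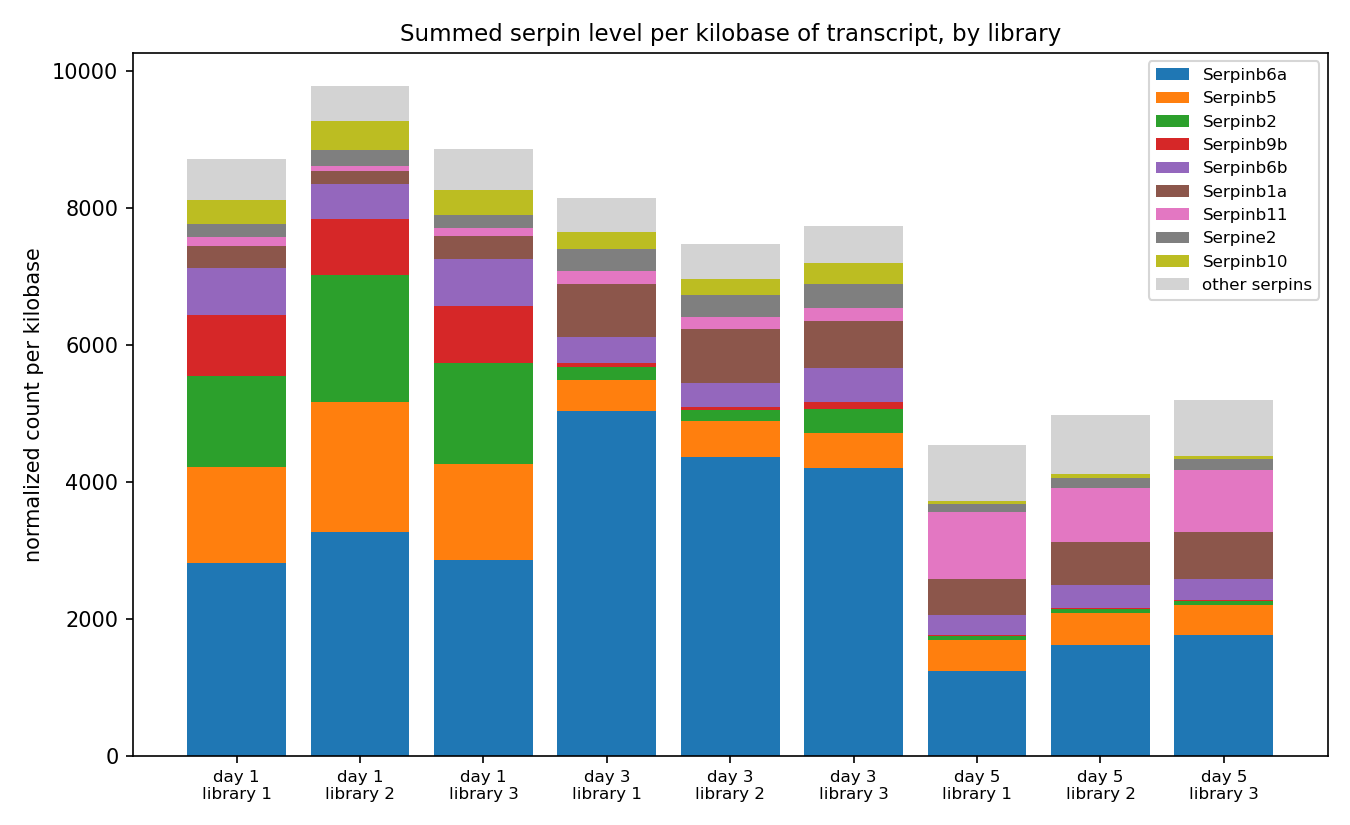
Stacked bars give the level per kilobase of transcript (y axis, normalized count per kilobase, from 0) of 9 abundant serpins and of all other serpins together, for each of the 9 libraries (x axis). Serpinb6a is the largest segment in every library, the Serpinb2 and Serpinb9b segments are widest on day 1, and the Serpinb11 segment is widest on day 5.

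Across the 3 days 22 of the 23 detected serpins differed (limma F test, Benjamini-Hochberg adjusted p under 0.05), beside 91.4% of all 17338 tested genes; the exception was Serpinb1c. From day 1 to day 3, 11 of 23 serpins rose and 8 fell, while 36.1% of all tested genes rose and 37% fell. From day 3 to day 5, 10 rose and 5 fell, against 34.8% and 32.4% of all tested genes. Over the whole course, day 5 against day 1, 12 rose and 8 fell, against 36.7% and 37.7%. With 23 members these counts lie not far from the general shares, and the detail is in which members moved. The median log2 change of the 23 was 0.58, 0.36 and 0.28 in the 3 comparisons, beside 0.0034, 0.055 and -0.0565 over all tested genes. The 10 that rose in the second step were 5 with a filter of 50 counts and 3 on the deposited log2 values, both of which leave out low members, and the 5 that fell were 8 after correction for transcript length and GC. The 12 that rose over the whole course were 7 on the deposited log2 values. Detection asks for 10 counts in only 3 libraries, so a member high on 1 day alone had to differ, and these counts describe no more than the members that passed.

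Calls in clades a and b differed in direction. All 5 detected members of clade a were higher on day 5 than on day 1, with a median log2 change of 4.51. None of them would have been detected from its day 1 libraries alone, so a rise was favoured in advance. In clade b only Serpinb1c and Serpinb12 were in that position. The contrast in direction thus depends in part on the detection rule and describes only the members that passed it. Of the 13 detected members of clade b, 4 were higher and 7 lower, with a median of -0.97. In the first step, 4 clade a members rose and 0 fell, while 4 clade b members rose and 7 fell. In the second step, 4 clade a members rose and 0 fell, while 3 clade b members rose and 4 fell. No test compared the clades. In bulk RNA, fewer cells of a type and less RNA per cell cannot be told apart, here and in every result below.

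**Figure D2:**
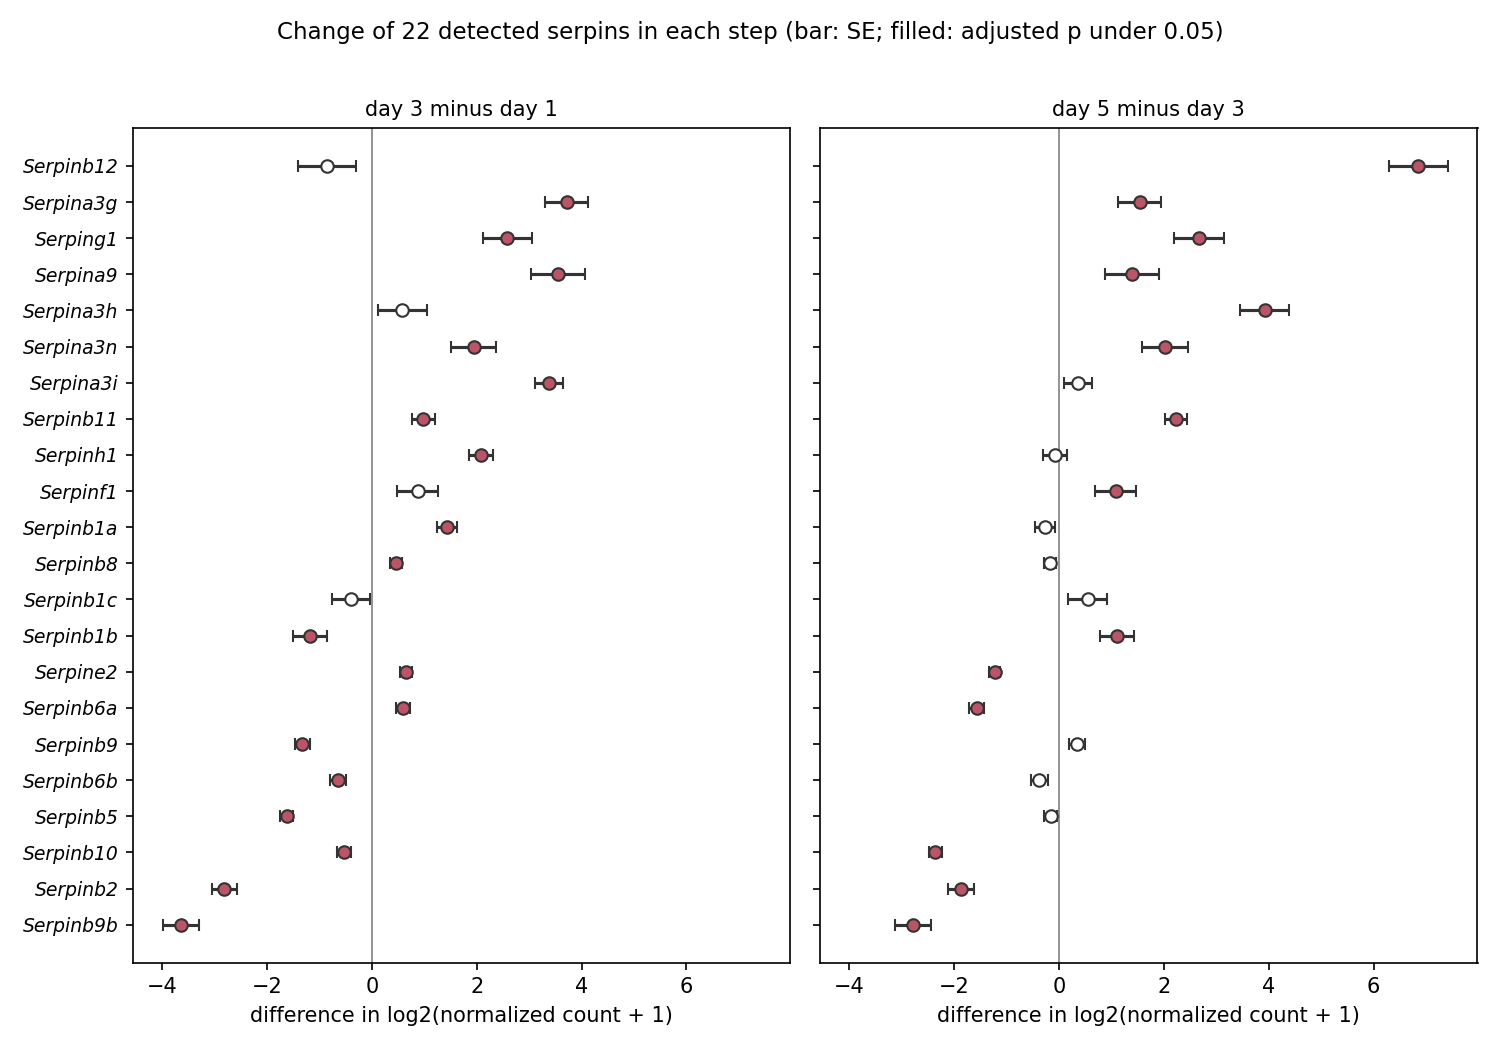
Points give the difference in log2(normalized count + 1) on the x axis for 22 detected serpins (y axis, ordered by the change from day 1 to day 5), for day 3 minus day 1 (left) and day 5 minus day 3 (right). Bars are standard errors from limma, and filled points passed an adjusted p of 0.05; Serpinb9b, Serpinb2 and Serpinb10 are filled and below 0 in both panels.

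In clade b, 3 members fell in both steps. Serpinb2, known as plasminogen activator inhibitor 2, had 2677, 3710 and 2917 normalized counts on day 1. The values were 377, 324 and 679 on day 3 and 130, 117 and 110 on day 5. All day 1 libraries lay above all day 3 libraries, and these above all day 5 libraries. The log2 change was -2.81 in the first step (SE 0.24, limma adjusted p = 3.396e-06) and -1.87 in the second (adjusted p = 7.556e-05). Serpinb9b, a relative of the granzyme B inhibitor Serpinb9, had 2866, 2657 and 2712 on day 1, 194, 153 and 353 on day 3 and 18.8, 32.3 and 48.0 on day 5. It made the largest fall in the family from day 1 to day 5, -6.43 on the log2 scale (SE 0.34, limma adjusted p = 6.566e-08). Of its exonic bases, 8.30% lie opposite exons of Gm36099, and since strand use in counting is not given in the sources used here, reads of the pair cannot be told apart there.

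Serpinb10, also called bomapin, fell late. Its day 1 values of 1233, 1476 and 1232 were followed by 847, 842 and 1037 on day 3 and by 156, 183 and 191 on day 5. The days did not overlap, but the first step was small, -0.53 on the log2 scale (SE 0.13, limma adjusted p = 0.00343), and the second was -2.36 (adjusted p = 2.81e-07). After correction of each library for its trend with transcript length and GC content, the first step came to 0.0021 (adjusted p = 0.9906), so the early fall depends on that setting. Serpinb10 and Serpinb2 are neighbours on chromosome 1 that overlap in 8.34% and 12.4% of their exonic bases on the same strand, and reads there could be given to either.

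The promoters of the members that moved most from day 1 to day 3 are shown because motifs for factors active in stressed or cytokine-treated epithelium are known at several serpin genes. The members were the 2 largest rises and the 2 largest falls among those with a mean of at least 100; Serpina9 belongs to them but has no entry in the table used. Each line runs from 250 bases before to 50 bases after the RefSeq start (GRCm38.p6), on the gene's own strand, with motif matches in capitals.
Serpinb2 (chr1:107511173-107511472, +): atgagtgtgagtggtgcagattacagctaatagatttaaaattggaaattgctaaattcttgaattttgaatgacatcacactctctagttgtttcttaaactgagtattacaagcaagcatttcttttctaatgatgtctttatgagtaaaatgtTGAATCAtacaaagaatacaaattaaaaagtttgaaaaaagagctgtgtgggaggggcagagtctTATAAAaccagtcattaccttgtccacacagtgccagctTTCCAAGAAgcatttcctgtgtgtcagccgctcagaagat
Serpinb9b (chr13:33027164-33027463, +): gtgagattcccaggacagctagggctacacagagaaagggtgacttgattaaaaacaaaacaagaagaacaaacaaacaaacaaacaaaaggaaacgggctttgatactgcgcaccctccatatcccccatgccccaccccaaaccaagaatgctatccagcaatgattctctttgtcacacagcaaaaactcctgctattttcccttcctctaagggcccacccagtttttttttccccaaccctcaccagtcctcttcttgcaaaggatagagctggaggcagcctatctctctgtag
Serpinh1 (chr7:99353190-99353489, -): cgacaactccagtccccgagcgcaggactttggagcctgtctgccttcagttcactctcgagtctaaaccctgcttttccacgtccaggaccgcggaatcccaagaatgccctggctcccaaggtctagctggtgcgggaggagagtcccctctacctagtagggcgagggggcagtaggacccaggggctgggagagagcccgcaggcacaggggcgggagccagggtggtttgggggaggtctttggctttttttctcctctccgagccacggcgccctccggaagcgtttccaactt
In the Serpinb2 promoter the capitals mark an AP-1 site (TGANTCA) at -94, a TATA box (TATAAA) at -29 and a STAT site (TTCNNNGAA) at +11 from the first listed start; a second start is listed downstream. The other pair held no match to these or to the interferon-stimulated response element core, which is TTTC, any 2 bases, TTTC. Both strands were searched, and no matches overlapped. Among all 32851 promoters listed there, the AP-1 site occurred in 7.81%, the TATA box in 13.6%, the STAT site in 8.30% and the interferon core in 3.44%. GC content was 35.3% for Serpinb2, 46.7% for Serpinb9b and 62.3% for Serpinh1.

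Another group fell in the first step and did not pass the test in the second. Serpinb5, or maspin, known from breast and other epithelia as a non-inhibitory serpin, had 3715, 5048 and 3748 normalized counts on day 1. It then had 1214, 1422 and 1384 on day 3 and 1186, 1248 and 1173 on day 5, so the later days overlapped and lay below day 1. The first change was -1.63 on the log2 scale (SE 0.12, limma adjusted p = 1.817e-06) and the second -0.15 (adjusted p = 0.2919), although that step was called after correction for length and GC (-0.38, adjusted p = 0.01496). Serpinb9, the inhibitor of granzyme B, had 1159, 886 and 1221 on day 1, 407, 391 and 502 on day 3 and 574, 591 and 479 on day 5. Its first change was -1.32 (SE 0.15, limma adjusted p = 2.113e-05). The second, 0.34, had an adjusted p of 0.06838, and the day 3 and day 5 libraries overlapped; it passed the test without day 1 library 2, day 3 library 3 or day 5 library 3. Serpinb6b, a close relative of Serpinb6a, had 1522, 1128 and 1515 on day 1, 829, 752 and 1096 on day 3 and 638, 736 and 665 on day 5. Its first change was -0.64 (SE 0.16, limma adjusted p = 0.003886), and the second, -0.38, had an adjusted p of 0.05625 although the libraries of the 2 days did not overlap. This second step was called after the length and GC correction (-0.52) and without day 1 library 2 or day 3 library 2.

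Serpinb6a and Serpine2 rose and then fell below their starting level. Serpinb6a had 6173, 7165 and 6269 normalized counts on day 1, 11029, 9535 and 9196 on day 3 and 2716, 3532 and 3857 on day 5. No libraries of different days overlapped. It rose by 0.60 on the log2 scale (SE 0.14, limma adjusted p = 0.002334) and then changed by -1.57 (adjusted p = 5.611e-06). Of its exonic bases 29.3% lie opposite exons of other genes, among them Nqo2 and Ripk1, and reads there cannot be told apart without strand. Serpine2, or protease nexin 1, a secreted inhibitor of thrombin and plasminogen activators, had 667, 802 and 682 on day 1, 1114, 1059 and 1208 on day 3 and 435, 506 and 501 on day 5. Its days did not overlap either. The steps were 0.65 (SE 0.11, limma adjusted p = 0.0003054) and -1.23 (adjusted p = 6.528e-06).

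Serpinb1b, a low-level paralogue of the neutrophil elastase inhibitor, was lowest on day 3. Its values were 52.9, 53.1 and 37.0 normalized counts on day 1, 30, 12 and 22.7 on day 3 and 43.6, 49.0 and 41.8 on day 5. Every day 3 library was below all others, while day 1 and day 5 overlapped. It fell by 1.18 on the log2 scale (SE 0.33, limma adjusted p = 0.007985) and rose by 1.11 (adjusted p = 0.01293). Under quantile normalization its rise did not pass (0.56, adjusted p = 0.148). The change from day 1 to day 5, -0.07, had an adjusted p of 0.8525.

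Serpinb1a, Serpinb8 and Serpinh1 rose by day 3, and their second step did not pass the test. Serpinb1a, which inhibits neutrophil elastase and related granule proteases, had 618, 365 and 641 normalized counts on day 1, 1468, 1512 and 1297 on day 3 and 1030, 1211 and 1328 on day 5. It was higher on day 3 by 1.44 on the log2 scale (SE 0.20, limma adjusted p = 6.973e-05). The later days overlapped, and their difference of -0.27 had an adjusted p of 0.2497. Serpinb8, an inhibitor of furin, moved little. It had 551, 547 and 566 on day 1, 732, 710 and 853 on day 3 and 763, 663 and 609 on day 5. The first change was 0.46 (SE 0.11, limma adjusted p = 0.003712). Day 3 and day 5 overlapped, and their difference of -0.17 (adjusted p = 0.1938) was called only after the length and GC correction (-0.46). The day 5 excess over day 1, 0.28, had an adjusted p of 0.04032 and passed the test in 2 of the 9 fits that left out 1 library; without day 5 library 1, for example, it was 0.20 (adjusted p = 0.1089).

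Serpinh1, the chaperone that binds folding collagen in the endoplasmic reticulum, had 61.7, 40.7 and 61.9 normalized counts on day 1 and 229, 232 and 234 on day 3. On day 5 it had 182, 306 and 191, with the second library above every day 3 library and the other two below them. The first change was 2.08 on the log2 scale (SE 0.23, limma adjusted p = 1.868e-05) and the second -0.07 (adjusted p = 0.7975). Collagens and the enzymes that work beside Serpinh1 were counted in a list with 27 tested genes. From day 1 to day 3, 7 of the 27 rose and 15 fell (median -0.50 on the log2 scale), beside 36.1% and 37% of all tested genes. From day 3 to day 5, 10 rose and 9 fell (median 0.23), which is near the general shares of 34.8% and 32.4%. P4ha2, a collagen prolyl hydroxylase subunit, went with the serpin, from 581 ± 16.8 to 1413 ± 58.7 and 1559 ± 103. The basement membrane chain Col4a1 went from 1206 ± 189 to 372 ± 78.9 and 28.5 ± 4.56, a change of -5.36 on the log2 scale over the whole course (limma adjusted p = 7.979e-09). Col7a1, of the anchoring fibrils, was 2.54 higher on day 5 than on day 1 (adjusted p = 1.067e-07).

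Serpinb11 and Serpinb12 became prominent at day 5. Serpinb11 had 249, 130 and 240 normalized counts on day 1, 395, 386 and 396 on day 3 and 2018, 1644 and 1899 on day 5. The days did not overlap, and the steps were 0.98 (SE 0.21, limma adjusted p = 0.001775) and 2.23 (adjusted p = 1.054e-05) on the log2 scale. Serpinb12 was near 0 until day 5, with 0.678, 2.49 and 3.03 on day 1, 0, 0 and 2.96 on day 3 and 183, 172 and 192 on day 5. Only 9 reads on day 1 and 3 on day 3 lay behind the early values, against 474 on day 5. From reads summed over the libraries of a day and scaled for their size, the day 5 level was 156 times the day 3 level, with a 95% counting interval of 53.0 to 758, and the limma change was 6.85 (SE 0.56, adjusted p = 3.414e-06). The first step, -0.86 (adjusted p = 0.1848), passed the test when day 3 library 3, the 1 with reads, was left out (-1.52); the second step was then 7.52. Intervals of this kind cover counting error only. Serpinb12 reached 10 counts on day 5 alone, so it was tested only because that day was high. Its p-values and ratio are thus a description and no separate support for a rise. Both genes lie in the chromosome 1 cluster that also holds the falling Serpinb2, Serpinb5 and Serpinb10. Neither shares a 50-base stretch with another gene.

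**Figure D3:**
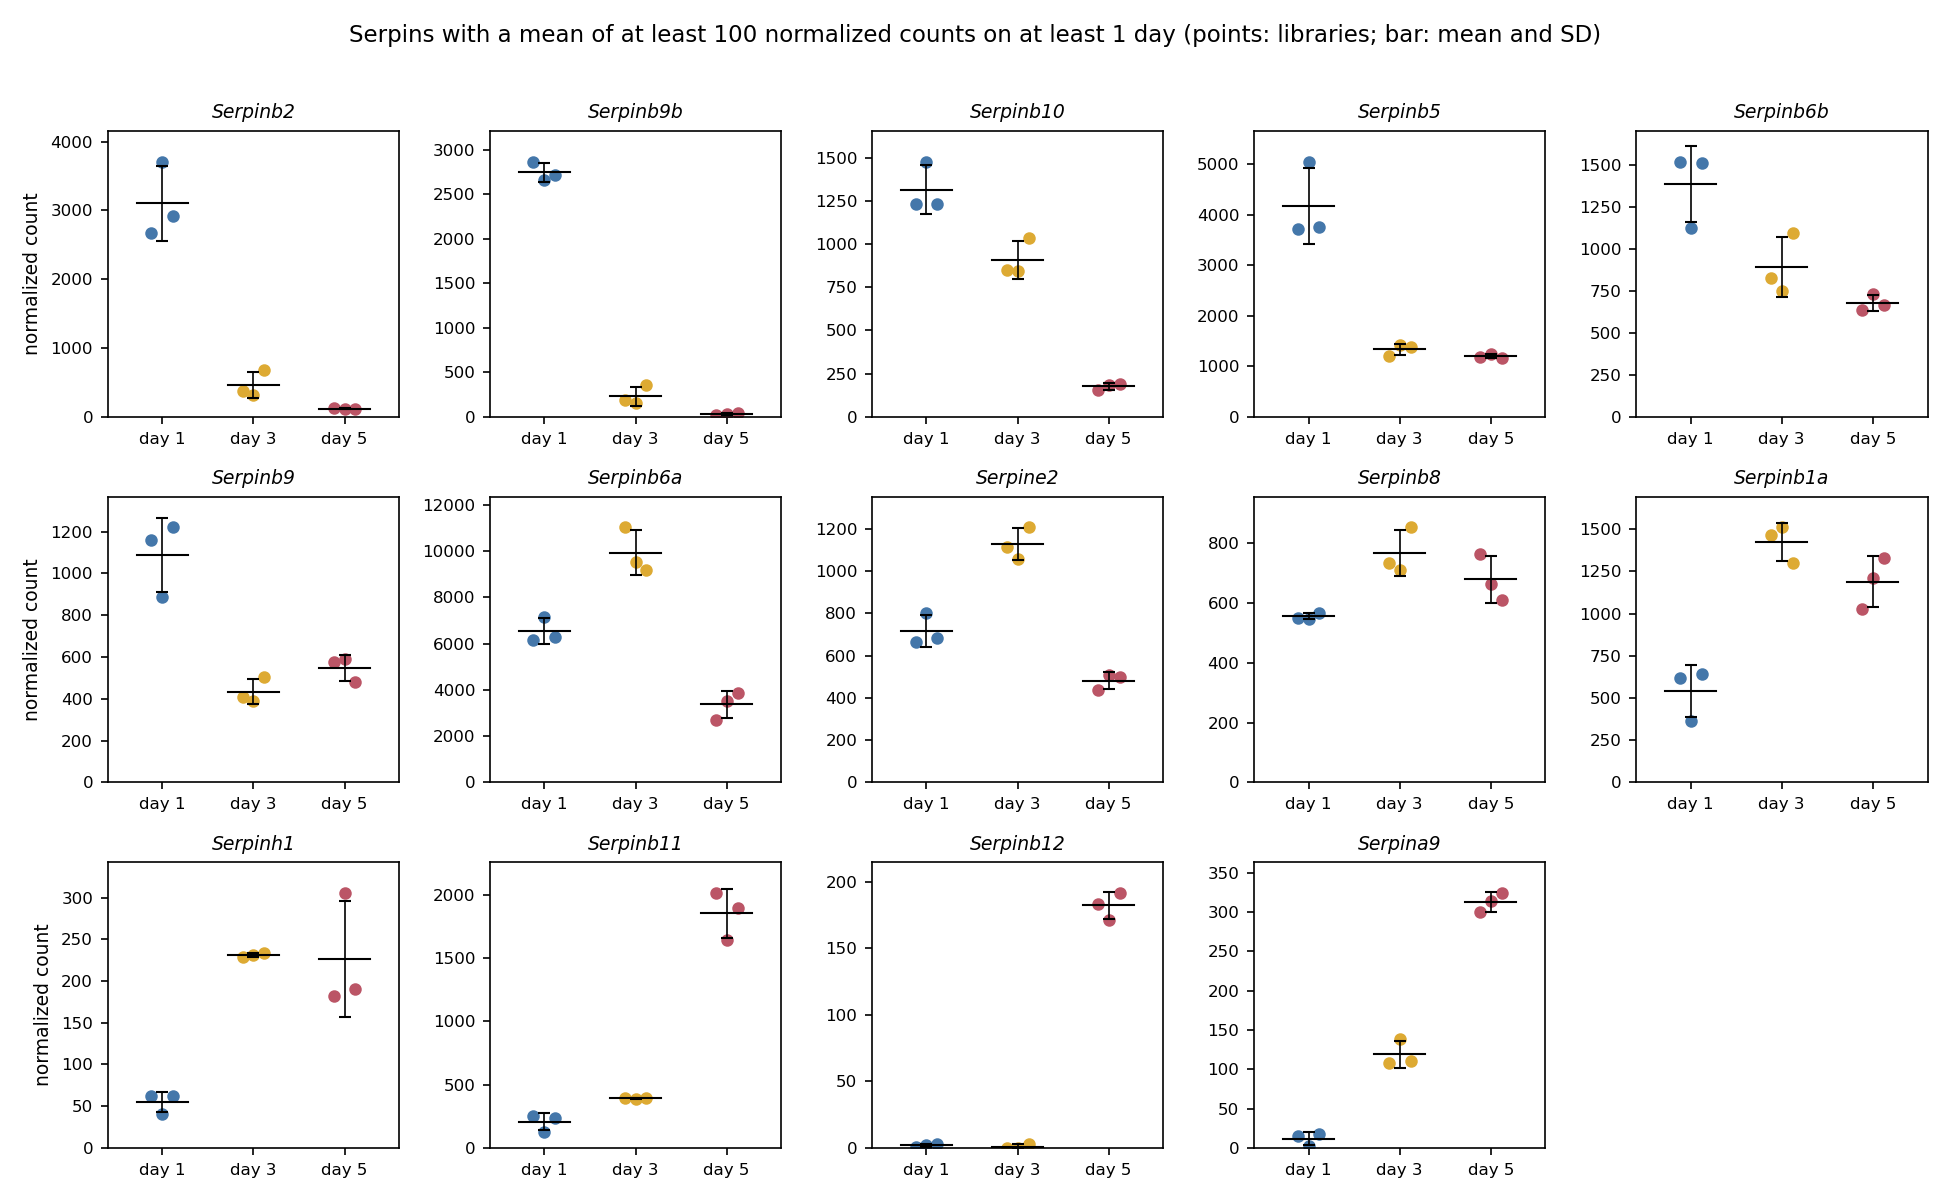
Panels show the normalized count (y axis, from 0, scaled separately) of 14 serpins whose mean reached 100 on at least 1 day, by day (x axis), with 1 point per library and a bar for the mean and SD of 3 libraries. Serpinb2, Serpinb9b and Serpinb10 step down, Serpinb6a and Serpine2 peak on day 3, and Serpinb11, Serpinb12 and Serpina9 are highest on day 5.

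The detected members of clade a rose from almost nothing, and none would have been detected from its day 1 libraries alone. Serpina9, first known from germinal centre B cells, had 14.9, 2.49 and 18.2 normalized counts on day 1, 109, 139 and 111 on day 3 and 300.2, 314 and 325 on day 5. The days did not overlap. The first change was 3.55 on the log2 scale (SE 0.52, limma adjusted p = 0.0001133) and the second 1.39 (adjusted p = 0.03497). Without day 1 library 2, its lowest, the first change was 2.78 (adjusted p = 7.005e-06) and the second step of 1.39 had an adjusted p of 0.0001436; from day 1 to day 5 it was then 4.17. The second call was lost on leaving out any of the day 3 or day 5 libraries, after the length and GC correction, and on the deposited log2 values; the change from day 1 to day 5, 4.94, had an adjusted p of 8.247e-06. Of its exonic bases 1.96% overlap Gm28577 on the same strand.

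The Serpina3 genes are mouse copies related to human antichymotrypsin, expanded on chromosome 12, and 4 of 11 were detected. Serpina3i had 4.75, 4.98 and 6.67 on day 1, 71.2, 83.0 and 48.4 on day 3 and 83.2, 81.3 and 91.1 on day 5, so the rise came in the first step (3.38 on the log2 scale, SE 0.27, limma adjusted p = 2.37e-06). Serpina3g, an inhibitor of cysteine cathepsins known from activated T cells and macrophages, had 1.4, 1.7 and 0 on day 1, 22.5, 26.8 and 20.7 on day 3 and 51.5, 72.3 and 89.8 on day 5. Its day 1 level rests on 4 reads; by summed reads the day 5 level was 75.4 times as high, with a 95% counting interval of 29.0 to 280. The second step of 1.54 (limma adjusted p = 0.007032) was not called with quantile normalization (1.05, adjusted p = 0.061). Serpina3h stayed at 4 reads in all on day 1 and again on day 3, then had 30.7, 38.7 and 44.3 normalized counts on day 5, by summed reads 23.9 times the day 3 level (95% counting interval 9.05 to 89.5, limma adjusted p = 4.415e-05). Serpina3n, an acute phase inhibitor, was at 0 in all day 1 libraries, had 1.25, 5.36 and 2.96 on day 3 and 16.8, 11.6 and 16.0 on day 5. Against the 3 reads over the group that a count of 0 allows, day 5 was at least 21.7-fold higher (limma adjusted p = 1.137e-05). Neither Serpina3h nor Serpina3n would have been tested without its day 5 values, so a rise to day 5 was favoured in advance. Their p-values and ratios are thus a description and no separate support for a rise. The 4 detected copies share 50-base stretches with other genes, so their separate values are uncertain. The share was 24.4% in Serpina3h, 16.0% in Serpina3g, 15.4% in Serpina3i and 6.90% in Serpina3n.

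Serping1 and Serpinf1 also rose from low levels. Serping1 encodes the C1 inhibitor, which blocks the complement proteases C1r and C1s. It had 0.678, 0 and 0 normalized counts on day 1, 2.50, 10.7 and 7.89 on day 3 and 50.5, 43.9 and 39.4 on day 5. The limma changes were 2.59 (SE 0.47, adjusted p = 0.0005345) and 2.67 (adjusted p = 0.0006287) on the log2 scale, and the day 1 level rests on 1 read. Its target C1ra went from 0.982 ± 0.589 to 7.89 ± 4.28 and 47.6 ± 6.03, and C1s1 from 0.452 ± 0.783 to 1.64 ± 0.91 and 32.0 ± 10.7; these 2 genes were picked here as the known targets, after their values were seen. Serpinf1 had means of 2.84 ± 0.888, 5.96 ± 0.915 and 14.5 ± 6.67. Neither Serping1 nor Serpinf1 would have been tested without its day 5 values, so a rise was favoured in advance. Its rise in the second step (1.08, adjusted p = 0.03055) rests on day 5 library 3, at 22.2, and was lost without that library (0.75, adjusted p = 0.1087), and also without day 3 library 1 or 3. It was also lost with no filter on low values (adjusted p = 0.07509), on the deposited log2 values (0.05178 as adjusted p) and under quantile normalization (0.32, adjusted p = 0.5112). The first step, 0.88, had an adjusted p of 0.06354 and was called without day 5 library 3. Of the 8 fibroblast markers, Dcn went from 0 in all day 1 and day 3 libraries to 94.1, 119 and 124 on day 5; its part in these rises was not tested. The defining markers Col1a1, Col1a2, Col3a1, Pdgfrb, Lum and Dpt were at or near 0 on day 5, with at most 1.98 in any library, and Pdgfra was at most 6.94.

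Of the other members, Serpinb1c had means of 12.2 ± 4.43, 8.64 ± 1.17 and 13.5 ± 4.08, with overlapping libraries on all days. No comparison passed the test for it; the adjusted p was 0.3549 for the first step, 0.2085 for the second and 0.7139 for day 5 against day 1.

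In the plasminogen system, 9 of 14 tested genes were lower on day 5 than on day 1, beside 37.7% of all tested genes. This system turns plasminogen into plasmin at the cell surface through urokinase (Plau), its receptor (Plaur) and tissue plasminogen activator (Plat), and endocytic receptors such as Lrp8 take up inhibitor-protease complexes. From day 1 to day 3, 6 fell and 4 rose, which is near the shares of all tested genes (37% and 36.1%). Over the whole course the other 5 rose, and the median log2 change was -1.45. Plau went from 2269 ± 280 normalized counts to 626 ± 243 and 297 ± 34.7 (-2.93 over the whole course, limma adjusted p = 7.904e-07). Plaur went from 2003 ± 261 to 683 ± 119 and 336 ± 38.0, and Lrp8 from 1942 ± 217 to 468 ± 55.9 and 127 ± 35.1. Plat fell only in the second step by this test, by 1.59 (adjusted p = 8.166e-05), with an adjusted p of 0.1285 in the first. Lrpap1, a chaperone of those receptors, rose from 604 ± 40.2 to 3261 ± 550 and 5817 ± 375. Plgrkt, a plasminogen receptor, had 242 ± 12.3, 804 ± 90.3 and 701 ± 56.8. Plasminogen itself (Plg) had no read.

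**Figure D4:**
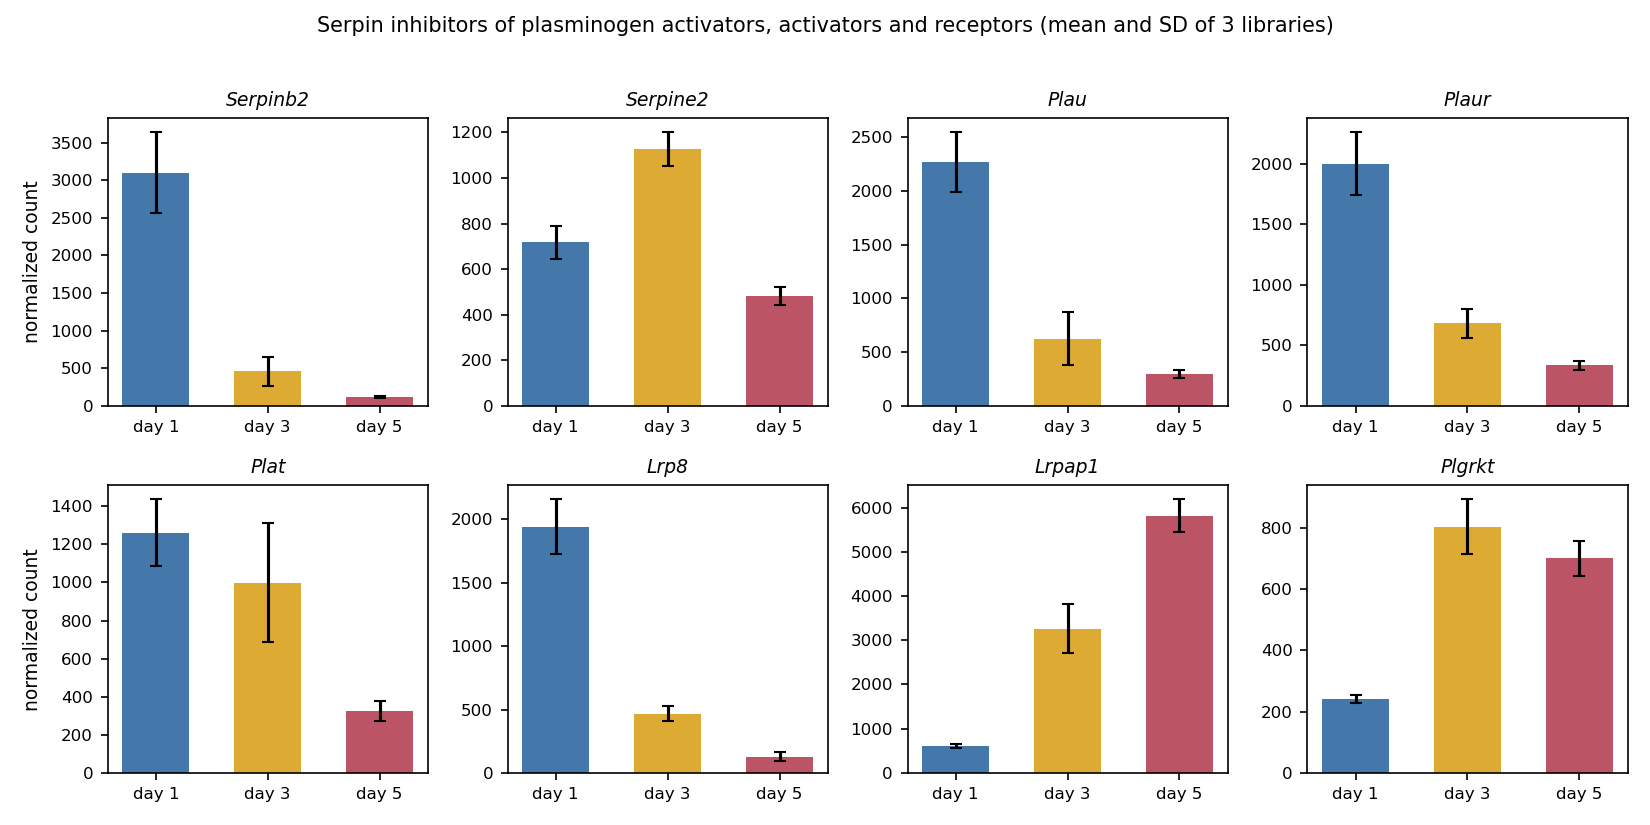
Bars give the mean normalized count (y axis, from 0, scaled separately) with SD over 3 libraries for 2 serpins that inhibit plasminogen activators and for 6 genes of the system, by day (x axis). Serpinb2, Plau, Plaur and Lrp8 step down from day 1, Serpine2 peaks on day 3 and Lrpap1 steps up.

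Genes listed as protease targets of serpins were called in both directions, and within each step in numbers near the shares of all tested genes. Of 33 tested, 13 rose and 12 fell from day 1 to day 3, beside 36.1% and 37% of all tested genes. From day 3 to day 5, 11 rose and 13 fell, beside 34.8% and 32.4%. From day 1 to day 5, 15 rose and 17 fell, beside 36.7% and 37.7%. Only 1 was not called there, so a larger share was called than among all tested genes. Plau and Plat stand in this list too. So does tissue factor (F3), a cofactor and not a protease. It is among those that rose from day 3 to day 5 and from day 1 to day 5. Among members with a mean of at least 100 on 1 day or more, the largest fall by day 3 was in the kallikrein Klk10, from 6005 ± 1135 to 693 ± 36.6 normalized counts, with 79.8 ± 37.8 on day 5. Casp1, the inflammatory caspase, rose from 9.92 ± 1.39 to 217 ± 31.5 and 474 ± 59.1 (log2 change 5.44 over the whole course, limma adjusted p = 6.786e-09). Granule proteases that clade b serpins are known to inhibit were almost unread: Gzmb and Ctsg had no read, and the mean of Elane was at most 0.404. Furin, the target of Serpinb8, had 2204 ± 152, 1685 ± 113 and 2770 ± 281.

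Of 19 tested genes listed as inhibitors outside the family, 11 rose and 2 fell from day 1 to day 3, beside 36.1% and 37% of all tested genes. From day 3 to day 5, 5 rose and 12 fell, beside 34.8% and 32.4%. The 12 include Anxa2, which is not an inhibitor and was counted in the plasminogen system too. Slpi, the secreted leukocyte protease inhibitor, peaked on day 3 (262 ± 104, 1853 ± 312 and 198 ± 88.9 normalized counts). The cystatin Csta1 was 4.51 lower on day 5 than on day 3 on the log2 scale (limma adjusted p = 1.381e-07). The serine protease inhibitor Spink5 went from 656 ± 359 to 47.6 ± 7.09 and 194 ± 43.6.

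Genes of the interferon response were listed because several serpins are known interferon targets. From day 1 to day 3, 29 of the 30 were called higher and 1 lower (median log2 change 4.33), beside 36.1% and 37% of all tested genes. From day 3 to day 5, 1 rose, 7 fell and 22 did not pass the test, while 34.8% of all tested genes rose and 32.4% fell. Day 5 against day 1 again had 29 higher and 1 lower, beside 36.7% and 37.7%. Among the 8 detected serpins whose mean stayed under 100, Serpina3i was called higher in the first step alone, Serpina3h and Serpinf1 in the second alone, and Serpina3g, Serpina3n and Serping1 in both. Serpinb1b fell and then rose, and Serpinb1c was called in neither. A relation between this list and the serpins was not tested.

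Cell type markers moved over the same days. Summed basal markers (8 genes) ranged from 232355 to 251549 normalized counts on day 1, 370351 to 427576 on day 3 and 210070 to 291622 on day 5. The day 3 sum is carried by Krt15, at 58527 to 65730 on day 1 and 269282 to 324278 on day 3, while Krt5 was lower on day 3 (80862 to 84268) than on day 1 (104698 to 114772), as were Krt14, Itga6 and Trp63. Markers of suprabasal and hillock cells (6 genes) were at 76280 to 92755, 145012 to 153818 and 22429 to 33150. The sum of squamous markers (7 genes) was 10340 to 12007 on day 1 and 260 to 388 on day 5. Sprr1a held most of it on day 1, at 9270 to 11014, and was at 37.7 to 44.3 on day 5. Ivl, Lor and Sprr1b were also lower on day 5. Krt1 was higher, at 26.8 to 51.6 on day 5 against at most 1.82 on day 1. Krt10 and Flg overlapped between day 1 and day 5. Secretory markers (8 genes) went from 526 to 1732 on day 1 to 460141 to 602530 on day 5, and multiciliated markers (7 genes) from 89.7 to 112 to 6280 to 7611. The part of these shifts in any serpin's change was not tested. Fibroblast markers (8 genes) summed to 4.07 to 14.9 on day 1, 4.02 to 8.88 on day 3 and 103 to 130 on day 5, where Dcn held nearly all. Leukocyte markers (10 genes) summed to 264 to 299, 2181 to 2280 and 63488 to 81663. Of these, Lyz2 reached 63260 to 81448 on day 5, and Cd68, a lysosomal protein, was at 245 to 278 on day 1, 1542 to 1699 on day 3 and 146 to 179 on day 5. Itgam and Cd74 were highest on day 3, at 13.7 to 24.7 and 26.6 to 45.5, while Tyrobp was at 0 in every library and Ptprc at most 4.07. Fcer1g, Csf1r, Cd79a and Cd3e were at most 16.1 in any library. Hepatocyte markers (4 genes) summed to at most 4.24, beside the undetected plasma serpins of the Serpina1 group.

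Depth ran from 16.4 to 35.1 M reads per library, with means of 30.8 ± 4.29 M (day 1), 21.9 ± 2.55 M (day 3) and 17.6 ± 1.51 M (day 5), so the earlier days were the more deeply sequenced.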

How the data were processed

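The RNA libraries came from total RNA and a Vazyme kit, per the labels. The submitters' processing notes name HISAT2 2.1.0, DESeq2 1.36.0 and the GRCm39 build; the counter, annotation release and strand setting were not given in the sources used here. A single table of log2 values was deposited by the authors, each the log2 of a count over the library's size factor without a pseudocount. Its 57107 lines held 359 repeats, which were dropped, and 297330 cells without a log2 value, in which no read was counted; these were read as 0. On the linear scale 100% of values were whole multiples of 1 read, within 0.01 read.

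The 17338 genes that reached 10 normalized counts in 3 libraries or more were tested with limma 3.58.1 in R 4.3.3 on log2(normalized count + 1), which understates changes of low genes, with 1 mean per day, a mean-variance trend and 6 residual degrees of freedom. P-values are two-sided and adjusted by Benjamini-Hochberg over all tested genes (threshold 0.05). The method was tested on simulated data. Values are mean ± SD of 3 libraries. Counting intervals are 95% and exact, on summed reads. Samples were grouped by the day in their titles, and no library was left out. Alternatives were other pseudocounts, filters, normalizations, fits and left-out libraries.

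Members with a mean of at least 100 on 1 day or more are given in every library, except 1 that is not reported here; from each list, at most the 3 largest called rises and falls with that mean were eligible to be named, and others are known partners of a serpin named after their values were seen. Members and lists were chosen with earlier results of these data known, and the hinge search was added after the values were seen. Transcript lengths, exon overlap, shared 50-base stretches and coding sequences come from GENCODE M21 (GRCm38), matched by gene identifier (98.3% of tested genes had a length), and promoters from RefSeq (GRCm38.p6), in which 54 of the 64 members matched.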

Additional observations from a re-analysis of the deposited data

Results flagged for a closer look

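Serpin pseudogenes lie outside the family rule, and 5 such rows are in the table. Serpina3e-ps had 9 reads over all 9 libraries, above the 3 reads that a count of 0 allows, with 4 on day 1, 1 on day 3 and 4 on day 5. The others had at most 1 read.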

How the results depend on the processing

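The counts of serpins called were recomputed under 9 other settings and with each library left out. From day 3 to day 5, the 10 serpins that rose became 5 of 17 tested with a filter of 50 normalized counts in 3 libraries, and 3 of 18 on the deposited log2 values of genes with a read in every library, which leave out the low genes. The 5 that fell became 8 after correction for transcript length and GC. From day 1 to day 5, the 12 that rose became 7 of 18 on the deposited values. Other counts stayed within 1.5 times. Of 1209 recomputed gene changes, 1157 kept sign and call, 11 were uncalled before and after with the other sign (in 5 results, of Serpina3i, Serpinb1b, Serpinb1c and Serpinh1), 27 lost the call, 13 gained it and 1 called change reversed: Serpinb10 from day 1 to day 3, 0.0021 after that correction, where the cause was not tested. In all, 56 of 69 gene results kept their call under every setting, and 51 their sign and call. Libraries with the same number did not deviate together (r from -0.31 to 0.14, against -0.15 to 0.36 for other numbers). With 3 libraries per day this cannot settle whether same-numbered libraries share a source, and the labels do not say. With a replicate block, 9 serpins rose and 5 fell from day 3 to day 5. Serpinf1 then lost its call (adjusted p = 0.05953), as did Serpinb8 from day 1 to day 5 (adjusted p = 0.07316). Depth limits the members with fewer than 10 reads on a day.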
